A study of Rattus norvegicus with 6 samples.

Results

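The splicing factor genes described here are the 87 of 22085 genes in the deposited table whose symbols carry the family names Snrp, Snrnp, Sf3a, Sf3b, Srsf, Hnrnp, Prpf or Lsm. Members were taken by symbol and counted in 7 families: 15 Snrp, 7 Snrnp, 9 Sf3, 11 Srsf, 19 Hnrnp, 13 Prpf and 13 Lsm genes. Of the 87, 85 had enough counts to be tested. RNA sequencing compared cells from 3 preeclampsia libraries with cells from 3 control pregnancy libraries, all grown from rat amniotic fluid that was taken on embryonic day 18.5 and harvested at passage 4. Preeclampsia is high blood pressure of the mother with organ injury that begins in pregnancy. The way the model was made, the rat strain, and the number of dams or fetuses behind each library are not stated in the labels, so p-values measure only the spread between these libraries. All 6 cultures were grown in DMEM/F12 medium with fetal bovine serum. Total counts lay between 48402185 and 59193961 in the preeclampsia libraries and between 49598012 and 51790772 in the control libraries.

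The labels call the cells mesenchymal stem cells. Of the 8 mesenchymal markers listed, all passed the filter on low counts, but they were not equally steady. Fitted fold changes were positive for 5 of the 8 and negative for 3. The collagen gene Col1a2, the only 1 of them without overlap between groups, stood at 7442, 8872 and 7945 CPM in preeclampsia libraries 1 to 3. Control libraries 1 to 3 stood at 5682, 6351 and 4520 CPM (log2 fold change 0.55, SE 0.19). Its adjusted p was 0.473 by edgeR and 0.0694 by DESeq2. Cd44 went the other way, at 495.4, 270.1 and 153.7 CPM in preeclampsia and 409.6, 794.6 and 375.2 CPM in control libraries. Its log2 fold change was -0.78 (SE 0.49). Nt5e, which encodes the surface marker CD73, stood at 43.2, 405.6 and 222.9 CPM in preeclampsia and 75.0, 22.2 and 158.5 CPM in control libraries. Eng, which encodes the surface marker CD105, stood at 22.6, 110.5 and 11.2 CPM in preeclampsia and 13.7, 31.0 and 126.5 CPM in control libraries. Both ranged widely within each group. CPM, the usual scale of counts relative to library total, was here adjusted between libraries by the TMM method. The epithelial markers Epcam and Cdh1 were at or near 0 in all 6 libraries, while the keratin gene Krt8 reached 50.9 CPM in control library 2 and 11.3 CPM in control library 3 and stayed under 2 CPM in the other 4. Krt18, another keratin gene, stood at 0.07, 0.30 and 0 CPM in preeclampsia and 0.71, 23.7 and 5.97 CPM in control libraries. The keratin gene Krt19 was at 4.88 CPM in control library 1, 0.852 CPM in control library 2 and 0 in the others. Cldn4 reached at most 0.566 CPM, in preeclampsia library 3. Epcam, Cdh1, Krt19 and Cldn4 were not tested. RNA came from whole cultures, so fewer cells of a type and less RNA per cell cannot be told apart.

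Introns are removed from messenger RNA precursors by the spliceosome, which is built from small nuclear ribonucleoprotein particles (snRNPs), each a short RNA in a coat of proteins. Snrp, Snrnp, Sf3, Prpf and most Lsm genes encode those coat proteins and their partners. Srsf genes encode SR proteins, which bind exons and mostly promote their inclusion. Hnrnp genes encode nuclear RNA-binding proteins that often oppose SR proteins and also act in RNA export, stability and translation. Most of these genes are expressed in all tissues, cultured stromal cells included.

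Most splicing factor genes had a slightly higher fitted level in preeclampsia than in control, and in none did the difference pass the test. Preeclampsia library 1 weighed most in this: the median log2 fold change, preeclampsia over control, was 0.18 with all libraries and 0.09 without that library. The fitted fold change was positive for 73 of 85 genes (85.9%), against 51.7% of all 15776 genes tested. Over all genes the median log2 fold change was 0.01. Single values ran from -0.51 for Snrpn to 0.54 for Snrnp40. By edgeR's quasi-likelihood test with Benjamini-Hochberg adjustment over all genes, 0 of 85 had an adjusted p under 0.05 (background 0.0%), and adjusted p ran from 0.473 to 0.989. DESeq2 likewise called 0 of 85, while it called 2.33% of all genes. At an unadjusted edgeR p under 0.05 there were 3 of 85 (3.53%), all higher in preeclampsia, against 9.19% of all genes in either direction, 4.13% in the higher and 5.06% in the lower. At an unadjusted DESeq2 p under 0.05 there were 5 (5.88%), the same 3 with Snrpd2 and Hnrnpm, against 11.4% of all genes.

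**Figure D1:**
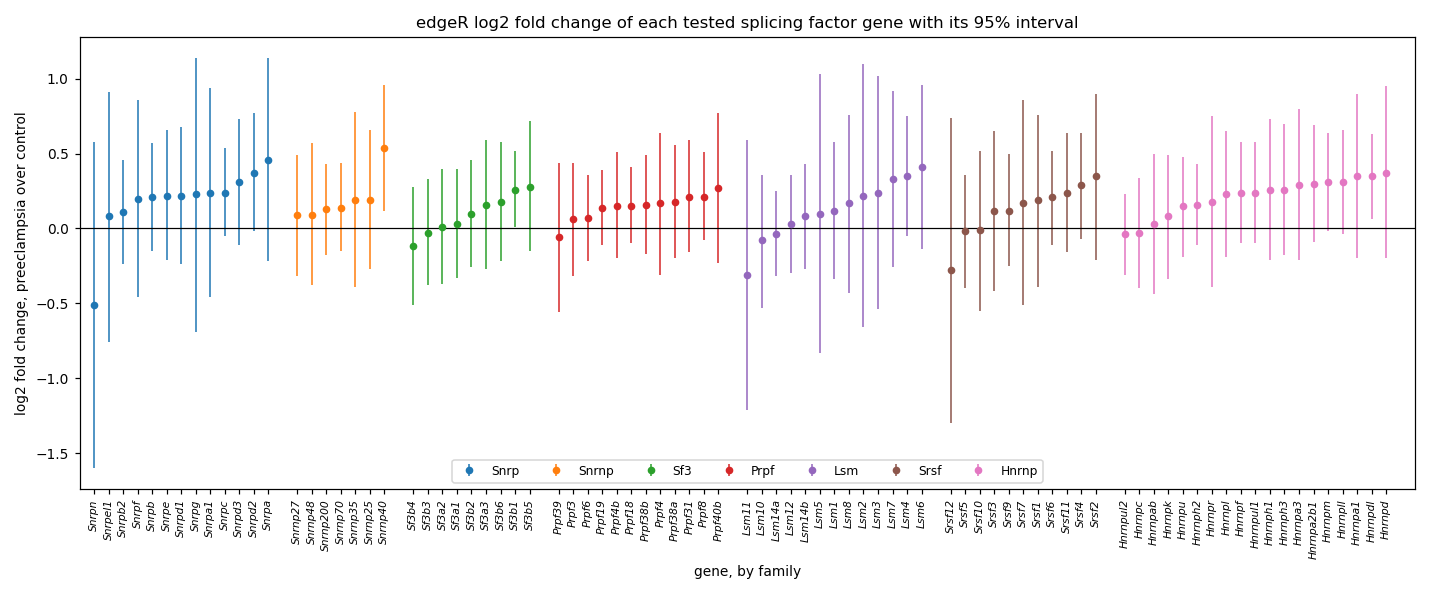
Each point is the edgeR log2 fold change of one tested splicing factor gene (1 of the 85 is not drawn), preeclampsia over control (vertical axis), with its 95% interval as a line, and genes are grouped by family along the horizontal axis. Most points lie above 0, and the intervals of Snrnp40, Hnrnpdl and Sf3b1 alone lie wholly above 0.

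Snrnp40, Hnrnpdl and Sf3b1 were the 3 genes with an unadjusted p under 0.05. Snrnp40 encodes a WD40 repeat protein of the U5 snRNP. It stood at 40.7, 32.1 and 28.3 CPM in preeclampsia libraries 1 to 3, against 22.0, 25.8 and 21.8 CPM in control libraries 1 to 3. Every preeclampsia library was above every control library, and library 1 was the highest. Its log2 fold change was 0.54 (SE 0.17), with an edgeR p of 0.0200 and an adjusted p of 0.473. Hnrnpdl, which encodes an hnRNP D-like RNA-binding protein, stood at 130.4, 106.4 and 117.9 CPM in preeclampsia libraries 1 to 3, against 98.6, 90.8 and 89.7 CPM in control libraries 1 to 3 (log2 fold change 0.35, SE 0.12). The groups did not overlap here either, and the edgeR p was 0.0239 with an adjusted p of 0.473. Sf3b1 encodes the large subunit of SF3B, the U2 snRNP complex that holds the branch point adenosine of the intron. Its level was 438.5, 397.4 and 437.1 CPM in preeclampsia libraries 1 to 3, against 349.6, 353.7 and 358.4 CPM in control libraries 1 to 3, so the control libraries lay within a narrow range below all preeclampsia libraries. Its log2 fold change was 0.26 (SE 0.11), with an edgeR p of 0.0457 and an adjusted p of 0.532.

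The promoters of these 3 genes and of Lsm2 and Hnrnpa1, which stood high in preeclampsia library 1 (values further on), are printed as the 250 bases before the first listed start site. The letters come from RefSeq on the rat build GRCr8, 5′ to 3′ on the gene's own strand, with coordinates on that build. Capitals mark the motifs searched on both strands: CCGGAAG (the core bound by ETS factors), GCGC repeated after any 2 bases (the kind bound by NRF1), the CCAAT box, the GC box GGGCGG, the E-box CACGTG, and the TATA box written TATAAA. No motif can contain another of the 6, but matches may overlap.
Snrnp40: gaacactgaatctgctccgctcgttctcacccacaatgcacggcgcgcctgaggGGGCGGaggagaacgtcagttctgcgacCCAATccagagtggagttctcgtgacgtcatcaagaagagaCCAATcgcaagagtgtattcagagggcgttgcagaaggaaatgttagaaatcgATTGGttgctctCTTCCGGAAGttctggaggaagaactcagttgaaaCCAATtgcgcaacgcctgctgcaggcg
Hnrnpdl: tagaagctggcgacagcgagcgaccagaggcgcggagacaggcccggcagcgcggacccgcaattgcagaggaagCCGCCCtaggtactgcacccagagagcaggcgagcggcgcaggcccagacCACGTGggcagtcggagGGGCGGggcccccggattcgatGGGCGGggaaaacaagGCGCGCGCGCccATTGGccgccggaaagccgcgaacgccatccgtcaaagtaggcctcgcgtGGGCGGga
Sf3b1: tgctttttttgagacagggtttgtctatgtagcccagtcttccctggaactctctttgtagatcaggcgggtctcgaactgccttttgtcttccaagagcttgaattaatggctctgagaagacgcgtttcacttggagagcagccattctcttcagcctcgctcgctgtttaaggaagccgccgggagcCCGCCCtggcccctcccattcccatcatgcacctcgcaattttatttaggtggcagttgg
Lsm2: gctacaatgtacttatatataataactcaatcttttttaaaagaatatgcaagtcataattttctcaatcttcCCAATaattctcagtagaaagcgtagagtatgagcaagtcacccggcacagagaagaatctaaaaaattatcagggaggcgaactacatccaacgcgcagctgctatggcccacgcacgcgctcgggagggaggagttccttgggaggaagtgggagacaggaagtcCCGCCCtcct
Hnrnpa1: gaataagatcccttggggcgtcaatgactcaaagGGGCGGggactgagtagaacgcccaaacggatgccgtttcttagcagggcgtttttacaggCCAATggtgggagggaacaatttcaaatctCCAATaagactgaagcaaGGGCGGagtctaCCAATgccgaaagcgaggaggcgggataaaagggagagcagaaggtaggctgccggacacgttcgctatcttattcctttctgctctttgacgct
Snrnp40 lies on the plus strand at chr5:147984540-147984789, Hnrnpdl on the plus strand at chr14:9861466-9861715, Sf3b1 on the minus strand at chr9:64026720-64026969, Lsm2 on the minus strand at chr20:3851871-3852120 and Hnrnpa1 on the plus strand at chr7:136253868-136254117. In the Snrnp40 window CCGGAAG occurs on both strands, as 2 overlapping matches, beside 4 CCAAT matches and 1 GC box. The Hnrnpdl window holds 4 GC boxes and 1 match each to the NRF1 type, the CCAAT box and the E-box. The Sf3b1 window holds 1 GC box and no other motif of the 6. Of the 87 genes, 79 were in the promoter table.

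Among those 79 windows, 23 (29.1%) held the NRF1 type, against 10.4% of the 11644 tested genes in the table and 5.3% of all 27455 promoters. CCGGAAG was in 21 windows (26.6%), against 13.9% of tested genes and 7.74% of all. CCAAT was in 35 windows (44.3%), against 35.1% and 34.3%. The GC box was about as common as in tested genes, at 44 windows (55.7%) against 56.2%, where 32.4% of all promoters had it. The E-box and the TATA box were each in 7 windows (8.86%), against 7.79% and 7.14% of tested genes and 5.79% and 13.1% of all promoters. These shares describe letters in a window and were not tested.

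Sm proteins form the ring that closes around the U1, U2, U4 and U5 small nuclear RNAs. Of the 8 Sm ring genes, 7 were higher in preeclampsia, the median log2 fold change was 0.22, and none was called. Summed over the ring, the level was 228, 186 and 169 CPM in preeclampsia libraries 1 to 3, against 152, 172 and 172 CPM in control libraries 1 to 3. Snrpd2, which encodes SmD2, stood at 29.7, 25.1 and 21.6 CPM in preeclampsia libraries, against 18.0, 20.7 and 20.2 CPM in control libraries, with no overlap and a log2 fold change of 0.37 (SE 0.16; edgeR p 0.0578, adjusted p 0.564). Snrpb, which encodes the SmB proteins, stood at 127.6, 103.3 and 92.0 CPM in preeclampsia libraries, against 85.1, 97.1 and 96.5 CPM in control libraries, where preeclampsia library 3 lay among the controls (log2 fold change 0.21, SE 0.15). Its relative Snrpn encodes SmN, a form best known from neurons and an imprinted gene. Snrpn was scarce, at 1.10, 1.24 and 1.17 CPM in preeclampsia libraries, against 0.921, 1.46 and 2.62 CPM in control libraries, with control library 3 the highest and a log2 fold change of -0.51 (SE 0.45). Snrpn lies wholly inside Snurf on the same strand, which had 7937 counts over the 6 libraries against 447 for Snrpn, so the split of reads between them is uncertain. Snrpd3, which encodes SmD3, also did not overlap between groups, at 12.4, 10.7 and 10.2 CPM in preeclampsia and 8.02, 9.68 and 9.15 CPM in control libraries. However, 331 of its bases lie opposite Gucd1, and the sources used here do not say whether counting used strand. The same limit holds for other members that lie opposite a gene. Among them are Snrpa (228 bases opposite RGD1560854) and Prpf40b (15432 bases opposite Fam186b, 57 opposite Mcrs1). Sf3a1 shares 323 bases with Tbc1d10a on the same strand, so there, as for Snrpn, the split of reads is uncertain.

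Copies related to Sm genes were near the lower limit of counting. Snrpel1, which the RefSeq table lists as a pseudogene, was tested at 1.59, 1.92 and 1.87 CPM in preeclampsia and 1.76, 2.18 and 1.16 CPM in control libraries (log2 fold change 0.08, SE 0.35). Snrpd2l had 9, 6 and 11 counts in preeclampsia libraries and 9, 4 and 0 counts in control libraries, and was not tested. Snrpep2 had 0 counts in all preeclampsia libraries and 3, 0 and 3 counts in control libraries. Reads of such copies can be shared with Snrpe and Snrpd2, so their values are uncertain.

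U1 snRNP recognises the 5′ end of the intron. Of 6 genes for its proteins, 5 were higher in preeclampsia, with a median log2 fold change of 0.19. Snrnp70, which encodes U1-70K, was almost the same in all preeclampsia libraries, at 204.3, 205.8 and 203.2 CPM, against 193.1, 201.5 and 160.2 CPM in control libraries (log2 fold change 0.14, SE 0.12). Those groups did not overlap, but the gap to control library 2 was small. Snrpc, which encodes the U1 C protein, stood at 48.4, 52.5 and 42.7 CPM in preeclampsia, against 40.0, 42.5 and 38.8 CPM in control libraries, again without overlap (0.24, SE 0.12; edgeR p 0.0889, adjusted p 0.623). Snrpa, which encodes the U1 A protein, had the second highest fitted fold change of all members, 0.46, but overlapped, at 43.6, 34.1 and 25.8 CPM in preeclampsia and 31.6, 26.0 and 17.6 CPM in control libraries (SE 0.28). Prpf40b, a relative of a yeast U1 protein, stood at 16.6, 20.4 and 20.0 CPM in preeclampsia and 18.2, 11.8 and 17.3 CPM in control libraries, with overlap and control library 2 the lowest (log2 fold change 0.27, SE 0.21).

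U2 snRNP marks the branch point. Its A' and B'' proteins are encoded by Snrpa1 and Snrpb2. Snrpa1 was at 40.5, 22.9 and 19.3 CPM in preeclampsia and 24.8, 24.3 and 21.1 CPM in control libraries, so preeclampsia library 1 stood far above all the others and library 3 was the lowest of all 6. Snrpb2 was at 28.2, 22.8 and 25.1 CPM in preeclampsia and 21.2, 23.4 and 25.7 CPM in control libraries. Of the 9 SF3A and SF3B genes, 7 were higher in preeclampsia, with a median log2 fold change of 0.10. Sf3b5, a small SF3B subunit, stood at 29.6, 44.3 and 36.9 CPM in preeclampsia and 27.1, 30.8 and 33.0 CPM in control libraries, and unlike most members it was high in preeclampsia libraries 2 and 3 and not in library 1 (0.28, SE 0.18; edgeR p 0.161, adjusted p 0.710). Sf3b4, another SF3B subunit, had a negative fold change of -0.12 (SE 0.16), at 93.6, 89.3 and 73.0 CPM in preeclampsia and 99.99, 100.9 and 76.2 CPM in control libraries. Sf3a1, a subunit of SF3A, was at 99.6, 84.3 and 76.6 CPM in preeclampsia and 91.0, 90.9 and 72.7 CPM in control libraries (0.03, SE 0.15). Both groups overlapped for each of these.

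The U5 and tri-snRNP proteins carry the catalytic heart of the spliceosome into place. All 8 of these genes had positive fold changes, with a median of 0.15. Prpf8, the scaffold of the catalytic centre, was at 331.7, 325.5 and 340.0 CPM in preeclampsia, against 324.8, 268.2 and 268.1 CPM in control libraries (0.21, SE 0.12; edgeR p 0.132, adjusted p 0.678). The groups did not overlap, although control library 1 came within 1 CPM of the lowest preeclampsia library. Snrnp200, the helicase that unwinds U4 from U6, was at 210.5, 230.7 and 242.5 CPM in preeclampsia and 233.2, 203.7 and 189.8 CPM in control libraries, with overlap (0.13, SE 0.13). Its preeclampsia library 1 was the lowest of its group. The 3 genes for proteins of the minor spliceosome, Snrnp25, Snrnp35 and Snrnp48, had fold changes of 0.19, 0.19 and 0.09, and in none was preeclampsia library 1 the highest library.

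Other Prpf genes act at later or regulatory steps, and all 5 had positive fold changes between 0.14 and 0.18. Prpf18, known for the second step of splicing, stood at 48.5, 50.4 and 55.7 CPM in preeclampsia, against 46.0, 45.3 and 47.7 CPM in control libraries, with no overlap and a log2 fold change of 0.15 (SE 0.11; edgeR p 0.196, adjusted p 0.737). Prpf38a, of the precatalytic spliceosome, stood at 42.6, 33.9 and 37.5 CPM in preeclampsia and 30.9, 39.4 and 30.4 CPM in control libraries (0.18, SE 0.16). Prpf38b, its relative, stood at 75.5, 67.9 and 76.7 CPM in preeclampsia and 69.0, 72.5 and 55.6 CPM in control libraries (0.16, SE 0.14). For this pair control library 2 lay among the preeclampsia libraries, and for Prpf38b control library 1 did so too.

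Lsm proteins form rings like those of the Sm proteins. Lsm2 to Lsm8 close around U6 RNA, and with Lsm1 in place of Lsm8 the ring acts in mRNA decay in the cytoplasm. All 7 U6 ring genes had positive fold changes, with a median of 0.24, while of 6 cytoplasmic and U7 genes 3 were higher and 3 lower; the contrast of these groups was not tested. Against the control mean, the median of the U6 ring was 0.63, -0.04 and 0.00 in preeclampsia libraries 1 to 3, and library 1 was the highest for 6 of 7. Lsm4 stood at 31.8, 31.0 and 23.6 CPM in preeclampsia and 20.8, 21.9 and 25.1 CPM in control libraries, with preeclampsia library 3 among the controls (0.35, SE 0.17; edgeR p 0.0788, adjusted p 0.612). Lsm6 stood at 12.8, 10.3 and 9.60 CPM in preeclampsia, against 6.30, 8.98 and 9.36 CPM in control libraries, with no overlap and control library 1 well below the rest (0.41, SE 0.23). Lsm14a and Lsm14b encode P-body proteins. Lsm14b stood at 29.5, 36.3 and 35.1 CPM in preeclampsia and 28.9, 30.8 and 35.8 CPM in control libraries (0.08, SE 0.15), and Lsm14a had a log2 fold change of -0.04 (SE 0.12). Lsm11, which binds U7 RNA in histone mRNA processing, varied within both groups, at 39.3, 20.2 and 22.9 CPM in preeclampsia and 46.7, 34.6 and 20.7 CPM in control libraries (-0.31, SE 0.37).

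SR protein genes had 8 of 11 positive fold changes and a median of 0.17. Srsf4 stood at 53.1, 43.6 and 47.3 CPM in preeclampsia and 38.9, 44.9 and 34.3 CPM in control libraries, where control library 2 passed preeclampsia library 2 (0.29, SE 0.15; edgeR p 0.0960, adjusted p 0.632). Srsf6, whose product regulates exon choice, stood at 141.7, 130.9 and 144.6 CPM in preeclampsia, against 128.0, 130.6 and 102.5 CPM in control libraries; the groups did not overlap, though preeclampsia library 2 and control library 2 were almost equal (0.21, SE 0.13). Srsf2, a general activator of exon inclusion, stood at 257.9, 168.7 and 154.8 CPM in preeclampsia and 155.9, 172.6 and 128.5 CPM in control libraries (0.35, SE 0.23). Srsf7 stood at 89.2, 52.5 and 52.1 CPM in preeclampsia and 57.3, 71.8 and 42.9 CPM in control libraries (0.17, SE 0.28). In both genes preeclampsia library 1 stood above all other libraries, and the other libraries of the 2 groups were mixed. Srsf5 was the only member whose lowest library was preeclampsia library 1, at 146.2, 171.3 and 202.7 CPM in preeclampsia and 182.2, 188.6 and 156.4 CPM in control libraries.

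The hnRNP genes had 17 of 19 positive fold changes and, at 0.24, the highest median of the families. Without preeclampsia library 1 their median was 0.102, below the 0.176 of Snrnp and the 0.155 of Snrp genes. Hnrnpm, which encodes a regulator of exon skipping, stood at 214.3, 178.2 and 167.6 CPM in preeclampsia, against 156.6, 158.3 and 137.2 CPM in control libraries, without overlap (0.31, SE 0.14; edgeR p 0.0613, adjusted p 0.570). Hnrnpa3 stood at 438.4, 294.0 and 322.6 CPM in preeclampsia and 327.1, 303.6 and 229.7 CPM in control libraries (0.29, SE 0.21). Hnrnpk, which binds runs of cytosine, stood at 688.3, 515.2 and 541.7 CPM in preeclampsia and 634.6, 537.8 and 482.7 CPM in control libraries (0.08, SE 0.17). For both, preeclampsia library 1 was the highest and control library 3 the lowest. Hnrnpl and Hnrnpll encode related proteins that bind CA-rich RNA, the second known for splicing of the CD45 gene in lymphocytes. Hnrnpll stood at 93.6, 78.9 and 71.1 CPM in preeclampsia and 67.4, 71.2 and 58.1 CPM in control libraries (0.31, SE 0.15), and Hnrnpl had a log2 fold change of 0.23 (SE 0.17). Hnrnph1 and Hnrnph2, which bind runs of guanine, had log2 fold changes of 0.26 (SE 0.19) and 0.16 (SE 0.11). Hnrnph1 stood at 243.9, 158.7 and 174.5 CPM in preeclampsia and 183.5, 147.5 and 151.0 CPM in control libraries, and Hnrnph2 at 134.5, 112.3 and 128.9 CPM in preeclampsia and 114.5, 113.1 and 108.3 CPM in control libraries.

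**Figure D2:**
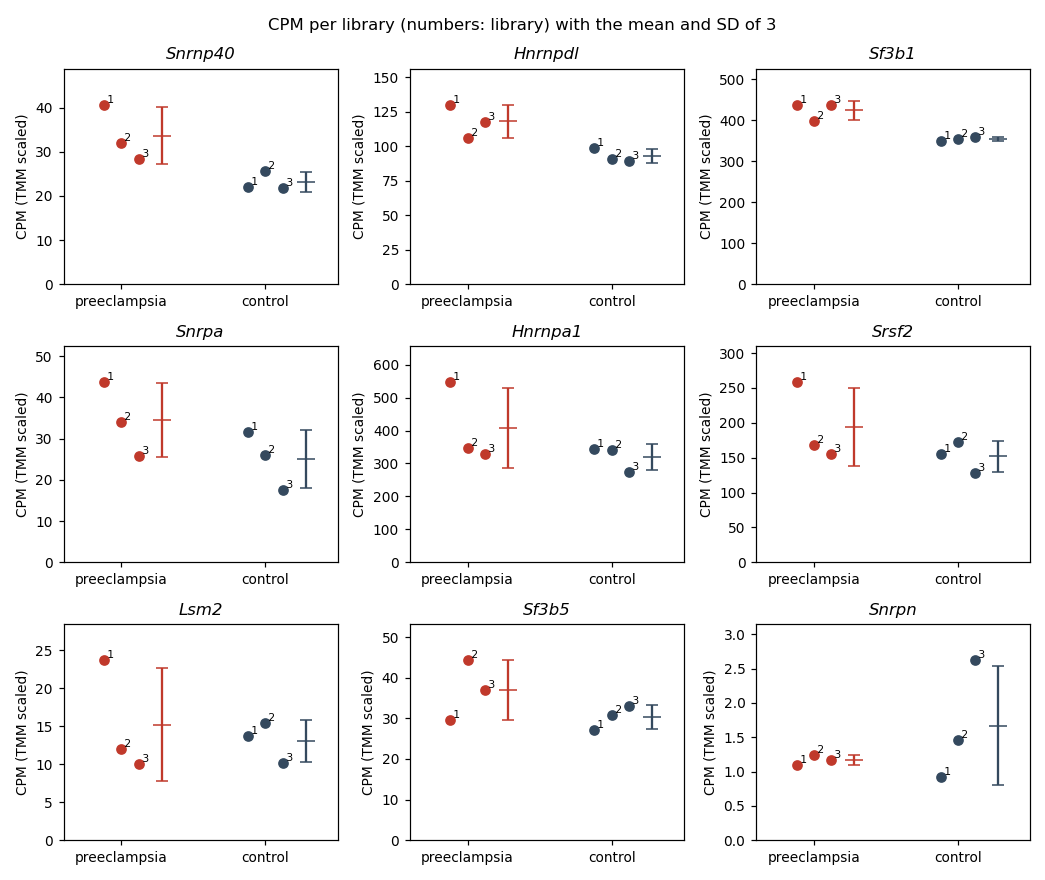
CPM of 9 splicing factor genes in each library (points, numbered by library), with the mean and SD of the 3 libraries of a group as a bar beside them, preeclampsia on the left and control on the right of each panel. In Snrnp40, Hnrnpdl and Sf3b1 all preeclampsia points lie above all control points, while in Hnrnpa1, Srsf2 and Lsm2 preeclampsia library 1 alone stands apart.

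In 15 of 85 members (17.6%) all preeclampsia libraries were above all control libraries, against 7.25% of all genes tested. In 0 of 85 (0.0%) were all preeclampsia libraries below all control libraries, against 8.3% of all genes. Beside the genes already named with no overlap, the 15 held Hnrnpa2b1, Hnrnpul1 and Prpf19. Hnrnpa2b1, a relative of Hnrnpa1 that also sorts RNA for transport, was at 622.9, 437.3 and 463.5 CPM in preeclampsia, against 423.6, 412.9 and 400.8 CPM in control libraries (0.30, SE 0.16). Prpf19, the ubiquitin ligase of the spliceosome, was at 153.2, 132.6 and 139.3 CPM in preeclampsia, against 131.9, 125.2 and 129.3 CPM in control libraries (0.14, SE 0.10).

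Much of the difference lay in single libraries. Preeclampsia library 1 was the highest of the 6 for 55 of 85 members (64.7%), against 18.4% of all genes, and for 18 of 19 hnRNP genes (94.7%). Control library 3 was the lowest for 38 of 85 (44.7%), against 17.6% of all genes. Measured against the mean of the control libraries, the median log2 difference over the members was 0.32, 0.07 and 0.09 in preeclampsia libraries 1 to 3, and 0.04, 0.08 and -0.12 in control libraries 1 to 3. Preeclampsia libraries 2 and 3 thus stood close to control libraries 1 and 2. Summed over the members, the level was 10979, 8691 and 8977 CPM in preeclampsia libraries 1 to 3, against 8907, 8859 and 7673 CPM in control libraries 1 to 3.

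**Figure D3:**
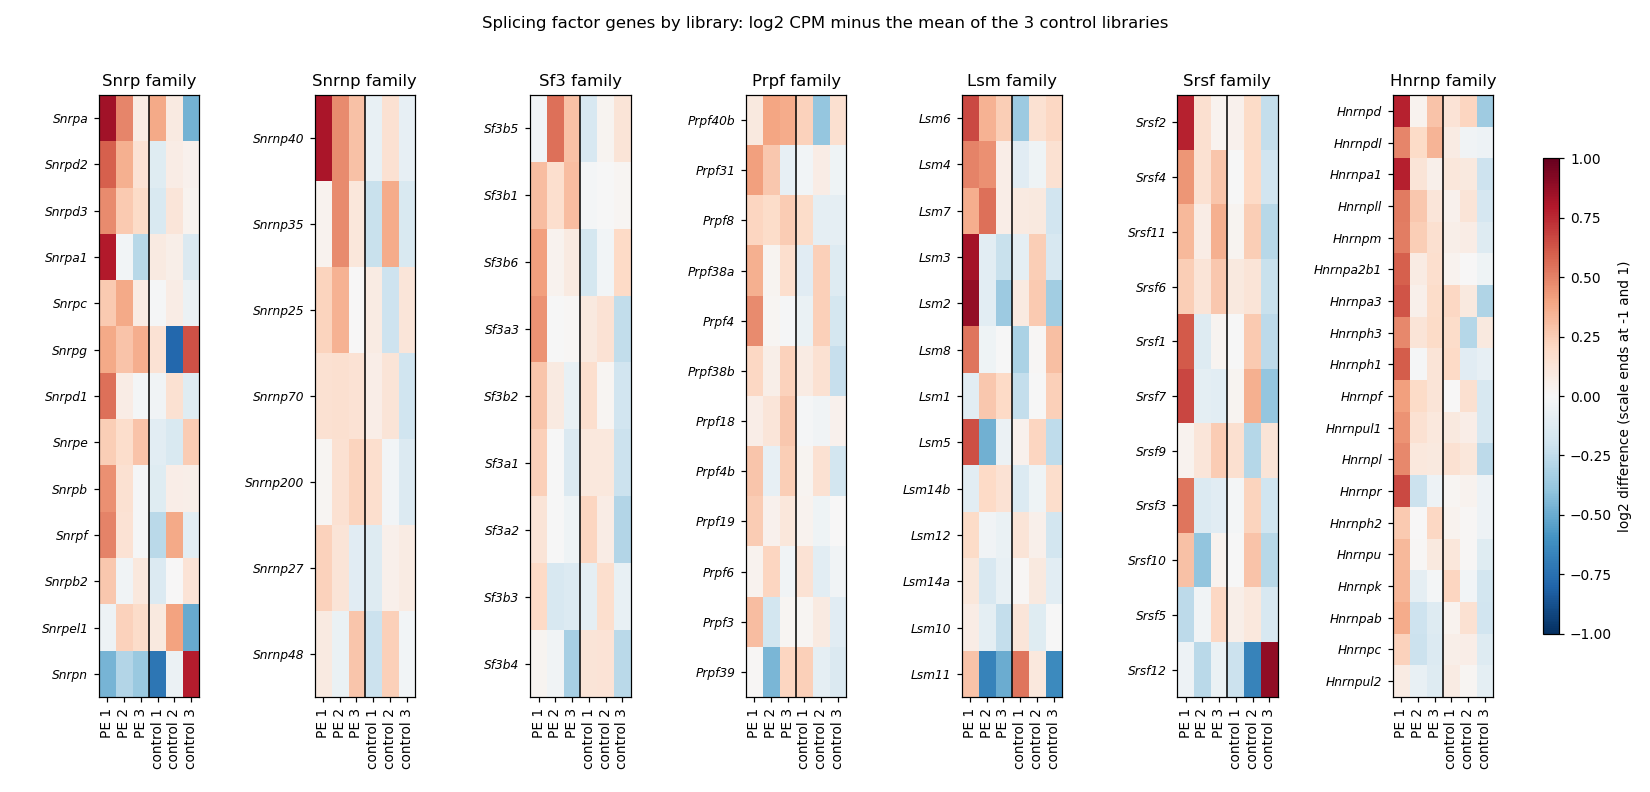
Each cell is the log2 CPM of one tested splicing factor gene (1 of the 85 is not drawn) in one library minus its mean over the 3 control libraries, with red higher and blue lower, the 3 preeclampsia libraries (PE) left of the line and the 3 control libraries right of it in each family. Red fills most of the column of preeclampsia library 1, where the median over the members is 0.32, most evenly in the Hnrnp family.

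Families shared the high preeclampsia library 1 to different degrees. The median difference from the control mean in that library was 0.48 for Hnrnp, 0.46 for Snrp, 0.36 for Lsm, 0.32 for Srsf, 0.24 for Sf3, 0.23 for Prpf and 0.15 for Snrnp genes. For Snrnp genes the preeclampsia libraries were alike, at 0.15, 0.16 and 0.14. For Srsf genes they were 0.32, -0.03 and 0.03, while control library 2 stood at 0.20. Prpf genes stood at 0.23, 0.04 and 0.18 in preeclampsia libraries 1 to 3. Within the Lsm family, where the U6 ring stood at 0.63 in preeclampsia library 1, the cytoplasmic and U7 genes stood at 0.10, -0.07 and -0.07 in preeclampsia libraries 1 to 3.

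Single genes showed the size of the gap. Lsm2, of the U6 ring, was at 23.7, 11.98 and 10.00 CPM in preeclampsia and 13.7, 15.4 and 10.1 CPM in control libraries, and preeclampsia library 1 was 1.93 times the mean of the other 5. Lsm3, of the same ring, was at 18.4, 9.63 and 8.89 CPM in preeclampsia and 9.75, 12.3 and 9.30 CPM in control libraries, a ratio of 1.85. Hnrnpa1, a well-known repressor of exon inclusion, was at 546.0, 348.3 and 328.8 CPM in preeclampsia and 343.5, 339.7 and 275.3 CPM in control libraries, a ratio of 1.67. For these genes preeclampsia libraries 2 and 3 lay within or near the control range, and Hnrnpa1 had a log2 fold change of 0.35 (SE 0.23; edgeR p 0.170, adjusted p 0.715). At the other end the ratio was 0.74 for Snrpn and 0.81 for Srsf5. Control library 3 was itself the highest library for Snrpn and for Srsf12, an SR protein gene at 4.68, 4.02 and 4.61 CPM in preeclampsia and 4.17, 3.05 and 8.93 CPM in control libraries.

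Without preeclampsia library 1, the fitted fold change was positive for 56 of 85 members (65.9%), against 48.3% of all genes. The median was 0.09, against -0.01 over all genes. Sf3b5 was then the only member with an unadjusted edgeR p under 0.05 (1.18%), against 12.4% of all genes. Both remaining preeclampsia libraries were above all control libraries for 17 of 85 members (20.0%), against 17.0% of all genes, and below all of them for 2 of 85 (2.35%), against 16.7% of all genes. Those 2 were Hnrnpc, at 203.2, 148.8 and 157.6 CPM in preeclampsia and 180.5, 181.4 and 158.0 CPM in control libraries, and Sf3b3, at 165.8, 129.3 and 131.6 CPM in preeclampsia and 135.3, 162.1 and 137.1 CPM in control libraries. Without control library 3 the count of positive fold changes was 67 of 85 (78.8%), against 52.3% of all genes, and the median was 0.15. An unadjusted edgeR p under 0.05 was then reached by 0 members (0.0%), against 9.64% of all genes. Without both libraries 49 of 85 (57.6%) were positive, against 49.4% of all genes, the median was 0.05, and 2 members (2.35%) had an unadjusted edgeR p under 0.05, against 17.5% of all genes.

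**Figure D4:**
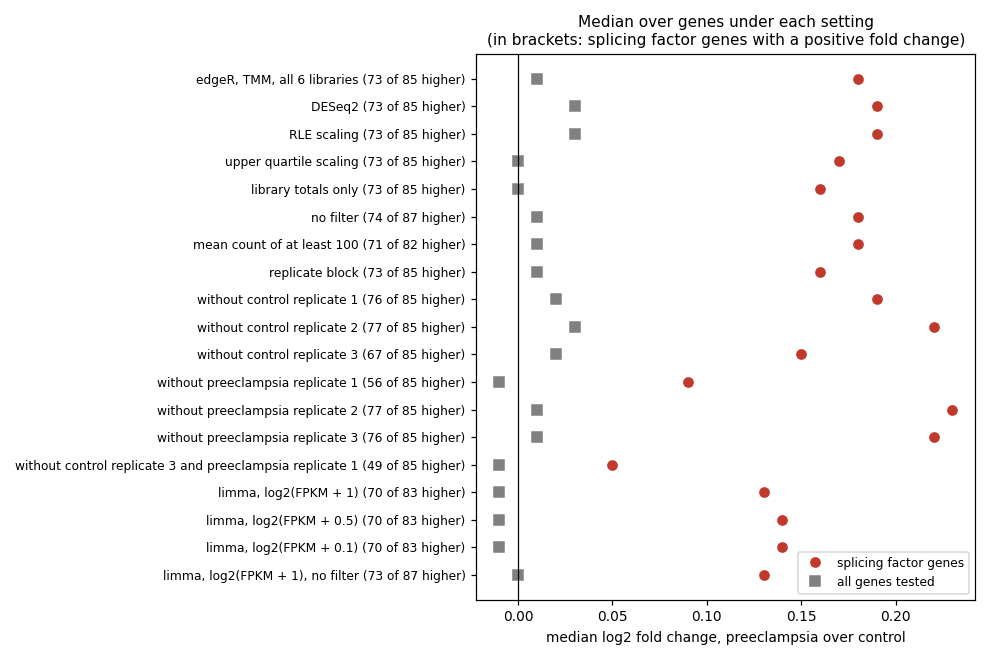
The median log2 fold change, preeclampsia over control, of the splicing factor genes (red circles) and of all genes tested (grey squares) on the horizontal axis, for the fit to all 6 libraries and for each alternative setting down the page. The splicing factor median lies right of the median of all genes in every setting drawn and is nearest to it, at 0.05, without control library 3 and preeclampsia library 1.

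Genes of the cell cycle stood high in the same library. All 20 genes of a G2 and M phase list were highest in preeclampsia library 1. Their summed level was 2545, 543 and 563 CPM in preeclampsia libraries 1 to 3, against 1019, 1277 and 521 CPM in control libraries 1 to 3. Preeclampsia library 1 thus had the highest sum for this list as well. Control library 3 had the lowest, but close to preeclampsia libraries 2 and 3. The median log2 difference from the control mean was -0.69 in control library 3, and -0.69 and -0.56 in preeclampsia libraries 2 and 3. Preeclampsia libraries 2 and 3 were well below control libraries 1 and 2, where the splicing factor sums were near each other. Fitted fold changes were positive for 20 of 20 cell cycle genes, with a median of 0.44 and a median SE of 0.68. None had an unadjusted edgeR p under 0.05, against 9.19% of all genes. Macrophage and blood markers were highest in preeclampsia library 2, for 11 of 11, and lowest in control library 3 for 8 of 11. Their summed level was 42.7, 712 and 390 CPM in preeclampsia libraries 1 to 3, against 210, 175 and 37.6 CPM in control libraries 1 to 3. Positive fold changes were fitted for 11 of 11, with a median SE of 1.05. None was at an unadjusted edgeR p under 0.05, against 9.19% of all genes. The defining blood marker Ptprc was at 0.672, 12.2 and 7.04 CPM in preeclampsia and 6.76, 6.38 and 1.39 CPM in control libraries. Of 4 mesothelial markers 1 had a positive fold change, and it divided the groups: Msln, which encodes the surface protein mesothelin, stood at 119.7, 89.2 and 154.2 CPM in preeclampsia, against 7.97, 14.5 and 12.3 CPM in control libraries. Its log2 fold change was 3.38 (SE 0.31), which DESeq2 called (adjusted p 7.9e-22) and edgeR did not (p 2.46e-05, adjusted p 0.228). The other mesothelial markers, Upk3b, Wt1 and Lrrn4, overlapped between groups. The keratin genes Krt8 and Krt18 had log2 fold changes of -3.90 (SE 1.24) and -6.29 (SE 1.66). DESeq2 called both lower in preeclampsia (adjusted p 0.00818 and 0.000324), and edgeR did not (adjusted p 0.473 and 0.441). Endothelial markers summed to 5.41, 4.77 and 16.1 CPM in preeclampsia libraries 1 to 3, against 10.7, 8.24 and 8.26 CPM in control libraries 1 to 3. Most of this sum was Kdr and Tek. Cdh5 reached at most 0.787 CPM, in preeclampsia library 2, and Pecam1, at most 0.379 CPM, was not tested. Neural markers summed to 31.4, 197 and 113 CPM in preeclampsia libraries 1 to 3, against 99.6, 74.0 and 140 CPM in control libraries 1 to 3. Nearly all of this sum was Tubb3. Elavl4 reached at most 0.802 CPM, in preeclampsia library 1, and Rbfox3 and Gfap, at or near 0, were not tested. The part of these lists in the splicing factor values was not tested.

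**Figure D5:**
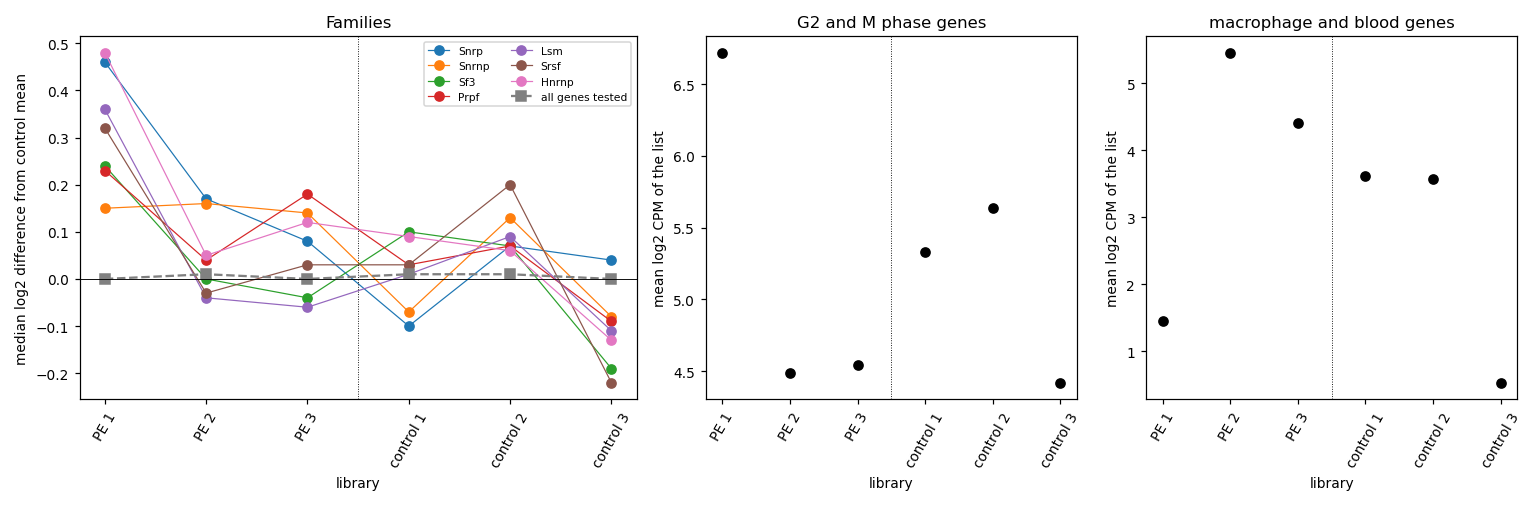
Left, the median log2 difference from the control mean of each splicing factor family (coloured lines) and of all genes tested (grey squares) in each library; middle and right, the mean log2 CPM of the G2 and M phase list and of the macrophage and blood list. Preeclampsia libraries (PE) stand left of the dotted line and control libraries right of it. Preeclampsia library 1 is the highest point for the cell cycle list, at 6.72, and among the lowest for the macrophage list, at 1.45.

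Other genes of the splicing machinery, with names outside the 7 families, were compared in the same fit. Of 136 tested, 92 had positive fold changes (67.6%), with a median of 0.08, and 0 were called by edgeR (background 0.0%), with 6 (4.41%) at an unadjusted p under 0.05, against 9.19% of all genes. DESeq2 called 2 (1.47%), Rbmx and Clk1, against 2.33% of all genes. Rbmx, an X-linked relative of the hnRNP proteins, stood at 61.0, 45.4 and 51.8 CPM in preeclampsia, against 32.3, 30.1 and 33.1 CPM in control libraries. No library overlapped, and the log2 fold change was 0.73 (SE 0.14; edgeR p 0.00183, adjusted p 0.374; DESeq2 adjusted p 0.00309). Clk1, a kinase that phosphorylates SR proteins, stood at 58.2, 48.4 and 61.7 CPM in preeclampsia, against 41.1, 39.2 and 34.7 CPM in control libraries, also without overlap (0.55, SE 0.14; edgeR p 0.00662, adjusted p 0.438; DESeq2 adjusted p 0.0419). Rbmx was highest in preeclampsia library 1 and Clk1 in preeclampsia library 3.

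By group, 18 of 20 factors that join U1 and U2 or the 3′ splice site had positive fold changes (median 0.12), and so did 10 of 10 SR-related proteins (0.10). Control library 3 was the lowest for all 10 SR-related genes, whose summed level was 2090, 1837 and 1950 CPM in preeclampsia libraries 1 to 3, against 1999, 1933 and 1591 CPM in control libraries 1 to 3. Partners of the tri-snRNP had 7 of 12 (0.09), and the Prp19 complex and catalytic factors 15 of 23 (0.07). Among SR protein kinases 4 of 7 were positive (0.24), with Clk2 at 0.39 (SE 0.13) and Srpk1 at -0.07 (SE 0.19). The groups did not overlap for 5 of these 7 kinases, 3 of them higher in preeclampsia and 2 lower. Those 2 were Srpk2, at 64.7, 57.7 and 62.2 CPM in preeclampsia and 66.0, 65.9 and 65.2 CPM in control libraries (-0.09, SE 0.10), and Dyrk1a, at 62.9, 56.7 and 56.2 CPM in preeclampsia and 69.9, 63.4 and 68.5 CPM in control libraries (-0.20, SE 0.10). Among 13 genes of the SMN complex and methylosome, which load Sm rings, 11 were positive (0.08). Other splicing regulators had 15 of 27 (0.10), and the 8 decapping partners of the Lsm ring 4 (0.02). The exon junction complex had 3 of 5 (0.05), the minor spliceosome 3 of 6, and nuclear import of snRNPs and SR proteins 2 of 5 (-0.01). The other 3 with positive fold changes and an unadjusted edgeR p under 0.05 were Sart3, Clk2 and Eif4a3, and Rbm24 was the only one lower (-0.97, SE 0.40; edgeR p 0.0493, adjusted p 0.543). Of these 136 genes, 68 were highest in preeclampsia library 1 and 63 lowest in control library 3, against 18.4% and 17.6% of all genes. In 15 of them all preeclampsia libraries were above all control libraries and in 4 below, against 7.25% and 8.3% of all genes.

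For most members the data limit the size of a difference. The 95% interval of the log2 fold change lay within 1 in either direction for 77 of 85 members, and within the log2 of 1.5 fold for 41. The median SE was 0.17, against 0.26 for all genes tested. The widest interval was that of Snrpn, from -1.60 to 0.58, a gene with 44 to 140 counts in a library. Lsm5, with 75 to 153 counts, ran from -0.83 to 1.03. Wide intervals also belonged to genes that varied within a group, such as Srsf12, from -1.30 to 0.74, and Lsm11, from -1.21 to 0.59. That of Lsm2 ran from -0.66 to 1.10. Dividing count by deposited FPKM implied a transcript longer than the gene itself for 2 of 84 members, Sf3b5 and Lsm5, and for 7.46% of all genes. FPKM levels were therefore not compared between genes, except to pick the named genes by mean FPKM, and that choice may be affected. Comparisons of one gene between libraries are not touched by this.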

How the data were processed

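Each gene has a deposited count, a whole number, and a deposited FPKM in each library, both in 1 table, per the file headers. Per the labels' protocols, RNA was selected on oligo(dT) beads and copied with random primers, and adapters carried unique molecular identifiers; the sources used here do not say whether these were used to collapse reads. The submitters' processing notes list StringTie 2.1.6, HISAT2 2.2.1, FastQC and cutadapt 1.9 with no steps. The table uses the sequence names of mRatBN7.2, and no build is named. Multiples of 4 made up 35.1% to 38.0% of the deposited counts from 1 to 15 in a library, where an even spread would give 20.0%, so low counts may not be single reads.

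The labels gave the groups, with 3 libraries in each, and no pair of libraries was a duplicate (smallest chi-square per degree of freedom 114). After filterByExpr and TMM scaling, edgeR 4.0.16 in R 4.3.3 ran its quasi-likelihood test of preeclampsia over control, with Benjamini-Hochberg adjustment over 15776 genes. The biological coefficient of variation was 0.418, so the spread between libraries set the precision more than depth did. CPM values are TMM-scaled. Same-numbered libraries did not deviate together (correlations 0.048, 0.041 and 0.010). The labels do not say that the numbers pair libraries, and these values cannot exclude it. Scripts were tested on simulated data.

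The members and gene lists were chosen with earlier results of these data known. Named genes were, per family, the 2 with the highest mean FPKM and the 2 with the smallest p, members called or not tested, and 6 related pairs (such as Hnrnpl and Hnrnpll); of the other lists, the 2 with the highest mean FPKM and the 2 with the smallest p, of those used here. One gene that this rule picks is counted but not reported here. Any other gene named, such as Hnrnpa1, Lsm2, Snrpa or Srsf5, was chosen after its values were seen. Alternatives were DESeq2 1.42.0, other scalings and filters, a replicate block, each library left out, and limma 3.58.1 on log2 FPKM, with 1, 0.5 or 0.1 added first, where mean FPKM was at least 1. Fold changes on that scale understate those of low genes.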

Additional observations from a re-analysis of the deposited data

How the results depend on the processing

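Under all 18 alternatives 0 splicing factor genes were called, with an unadjusted p under 0.05 for between 0 and 6 of them (0.0% to 7.06%), against 6.1% to 17.5% of all genes tested. The share of members passed that of all genes only without preeclampsia replicate 3, at 7.06% against 6.62%. The count of genes called in the whole table was 0 by edgeR, 368 with DESeq2, 2 with limma on log2(FPKM + 1) without a filter, from 0 to 2 with each library left out in turn, and 43 without control replicate 3 and preeclampsia replicate 1. The median log2 fold change of the splicing factor genes was 0.18 with all libraries, from 0.086 (without preeclampsia replicate 1) to 0.234 (without preeclampsia replicate 2) with each library left out, and 0.049 without control replicate 3 and preeclampsia replicate 1; under the other alternatives it ran from 0.132 to 0.189. The cause was not tested. The number of positive fold changes was 73 of 85 under every other scaling and with DESeq2.

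Of 32 named genes tested, 8 changed sign under some alternative, and none was called under any. With 1 library left out, Lsm14a stood at 0.018 and 0.024 without control replicate 2 or preeclampsia replicate 2, Sf3a1 at -0.059 and -0.080 and Hnrnpk at -0.003 and -0.065 without control replicate 3 or preeclampsia replicate 1, and Srsf7 at -0.135 without preeclampsia replicate 1. With 1 library, or control replicate 3 and preeclampsia replicate 1 together, left out, log2 fold changes ran from -0.178 to 0.115 for Sf3a1, -0.024 to 0.485 for Srsf2, -0.305 to 0.377 for Srsf7, -0.150 to 0.189 for Hnrnpk, -0.033 to 0.408 for Hnrnpa3, -0.031 to 0.302 for Hnrnpl, -0.170 to 0.024 for Lsm14a and -0.798 to 0.019 for Snrpn. The end nearest the other sign, or past it, came without control replicate 3 and preeclampsia replicate 1 for all of these but Lsm14a. Family medians stayed positive except without preeclampsia replicate 1, alone or with control replicate 3: Sf3 was -0.010 and Lsm -0.060 without that library, and Sf3 was -0.120, Lsm -0.144 and Hnrnp -0.011 without both.

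With the replicate number as a block, 0 genes and 0 splicing factor genes were called, the median was 0.160, and 1196 genes in the table (7.58%), 3 of them splicing factor genes (3.53% of the 85, Snrpa, Hnrnpdl and Snrnp40), had an unadjusted p under 0.05. The replicate block changed no call.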
